A study of Mus musculus with 6 samples.

Results

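The Hox genes are the 39 homeobox genes of the Hoxa, Hoxb, Hoxc and Hoxd clusters, taken as every symbol of the counts table made of Hox, a cluster letter and a number, out of 21006 symbols. RNA was measured in 6 libraries of TdTomato-positive neural crest sorted from mouse branchial arches at E11.5, 3 per group. The DKO (double knockout) genotype was Ehmt1f/f, Ehmt2f/f, the control genotype was Ehmt1+/+, Ehmt2+/+, and both groups carried Rosa26 TdTomato/+ and Wnt1-cre. Wnt1-cre acts in the neural crest and also in the dorsal neural tube, so both can carry the reporter. The labels call the 3 libraries of each group biological replicates. Whether a library came from 1 embryo or a pool is not given in the sources used here, nor is how many arches were taken. The p-values therefore measure only the spread between these samples.

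Hox genes encode transcription factors that give cells their position along the head-to-tail axis. The number in a symbol is the paralog group, and members of one group sit at matching places in the 4 clusters and tend to share a front limit of expression. Crest that fills the first arch, from which the jaws form, is free of Hox transcripts. Crest of the second arch carries Hox genes of paralog group 2, crest of the third arch adds group 3, and crest of the arches behind it adds group 4. The balance of paralog groups in a library of arch crest is therefore taken here as a reading of which arches it came from. The share of each arch in a library was not measured, nor was the part of other sorted cells that express Hox genes.

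DKO replicate 1 stood apart from the other 5 libraries in Hox transcripts, and the Hox comparisons between groups are given with and without it. Levels are TMM-scaled CPM, read counts scaled to a common library size after edgeR's correction for library composition. The targeted genes went with the labels: Ehmt2 lay at 119 to 140.4 CPM in the DKO and 347 to 359.7 CPM in the control libraries, and Ehmt1 at 133 to 168 CPM and 250.03 to 268 CPM. The libraries held 23414466 to 44538260 counts. Of 14555 tested genes, 319 were called higher and 119 lower in DKO (416 and 80 with scaling by library size only), and 110 and 21 without DKO replicate 1. The sorted cells carried the crest mesenchyme genes Prrx1 (396 to 583 CPM) and Pdgfra (266 to 414 CPM) and the glial crest gene Sox10 (63.1 to 91.9 CPM) in all 6 libraries.

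The 4 clusters lie on mm10 on chromosome 6 (Hoxa) and at chromosome 11, 96194316 to 96368254 (Hoxb), chromosome 15, 102921131 to 103036856 (Hoxc) and chromosome 2, 74668225 to 74765142 (Hoxd). The RefSeq table of promoter windows, which run from 250 bases before to 50 after a start, held 24 windows for 22 of the 39 genes. The windows below are those of the most abundant member with an entry in paralog groups 2, 3 and 4, the groups whose levels told the libraries apart. They are written 5′ to 3′ on the gene's strand (build GRCm38.p6), with capitals for matches to TGATNNAT, a motif bound by Hox proteins with their partner Pbx, and to CCAAT, both searched on both strands; no match overlapped another. Hoxa2 lies at chr6:52164782-52165081 on the minus strand, Hoxa3 at chr6:52213018-52213317 on the minus strand and Hoxb4 at chr11:96318017-96318316 on the plus strand. The Hoxa3 window sits at the far start of a gene model (52169059 to 52213067) that spans Hoxa4, Hoxa5 and Hoxa6. Which Hoxa3 start these cells use was not tested.
Hoxa2: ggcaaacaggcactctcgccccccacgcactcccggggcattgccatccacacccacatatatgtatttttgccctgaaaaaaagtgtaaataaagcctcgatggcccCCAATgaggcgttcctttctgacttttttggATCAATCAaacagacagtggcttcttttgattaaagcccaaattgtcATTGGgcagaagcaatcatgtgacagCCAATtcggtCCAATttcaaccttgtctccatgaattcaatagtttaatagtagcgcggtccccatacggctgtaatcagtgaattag
Hoxa3: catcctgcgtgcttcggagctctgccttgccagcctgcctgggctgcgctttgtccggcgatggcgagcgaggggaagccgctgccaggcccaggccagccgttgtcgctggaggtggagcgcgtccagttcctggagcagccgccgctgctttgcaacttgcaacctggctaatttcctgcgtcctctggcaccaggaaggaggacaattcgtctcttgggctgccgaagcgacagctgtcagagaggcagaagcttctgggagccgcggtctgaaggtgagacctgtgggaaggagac
Hoxb4: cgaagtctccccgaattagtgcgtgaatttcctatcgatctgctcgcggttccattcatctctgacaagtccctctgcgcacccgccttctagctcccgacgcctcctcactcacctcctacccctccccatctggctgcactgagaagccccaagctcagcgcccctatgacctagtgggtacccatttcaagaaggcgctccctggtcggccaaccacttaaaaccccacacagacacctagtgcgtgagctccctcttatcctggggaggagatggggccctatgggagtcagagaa
The Hoxa2 window held 1 TGATNNAT match, which begins 111 bases before the start, and 4 CCAAT matches, while the Hoxa3 and Hoxb4 windows held neither. TGATNNAT was found in 4 of the 24 Hox windows (Hoxa2, Hoxb1, Hoxb8 and Hoxd11) and in 8.85% of all 32851 windows. CCAAT was found in 15 of the 24 and in 37.4% of all windows. The GC content was 45.7% for Hoxa2, 64.0% for Hoxa3 and 58.0% for Hoxb4. These matches are letters in a window and not measured sites.

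Hox transcripts of the front paralog groups made up nearly all Hox counts. Of the 39 genes, 13 passed the filter on low counts and were tested, and 12 of these are described by name. Another 13 had a count in at least 1 library but were not tested, and the remaining 13 had 0 counts in all 6 libraries. A count of 0 allows up to 3 counts, which is 0.0671 to 0.135 CPM depending on the library. All 39 Hox genes summed to 102.6 to 133.7 CPM in the 3 control libraries.

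Per kilobase of merged exon, control levels fell from paralog group 2 through group 3 to group 4. Hoxa2, the gene that sets the identity of the second arch, stood highest at 14.8 ± 1.35 CPM per kb (SD, n = 3). Hoxb2, its paralog, followed at 9.93 ± 0.102 and Hoxb3 at 8.40 ± 1.78 CPM per kb, which did not differ beyond their spread. Hoxa3, needed for the thymus and parathyroid, stood at 6.15 ± 0.422 CPM per kb, and Hoxd3 at 3.41 ± 0.642. Hoxb4 reached 1.45 ± 0.959 CPM per kb, and Hoxd4, Hoxc4 and Hoxa4 lay at 0.641 ± 0.751, 0.608 ± 0.791 and 0.578 ± 0.578, which overlapped one another. Genes of group 1, active mainly in the early hindbrain, were also low, with 0.253 ± 0.126 for Hoxb1 and 0.161 ± 0.121 CPM per kb for Hoxd1, and Hoxb9 stood at 0.159 ± 0.037. The levels from Hoxd4 down to Hoxb9 did not differ from their neighbours in this order beyond their spread.

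**Figure D1:**
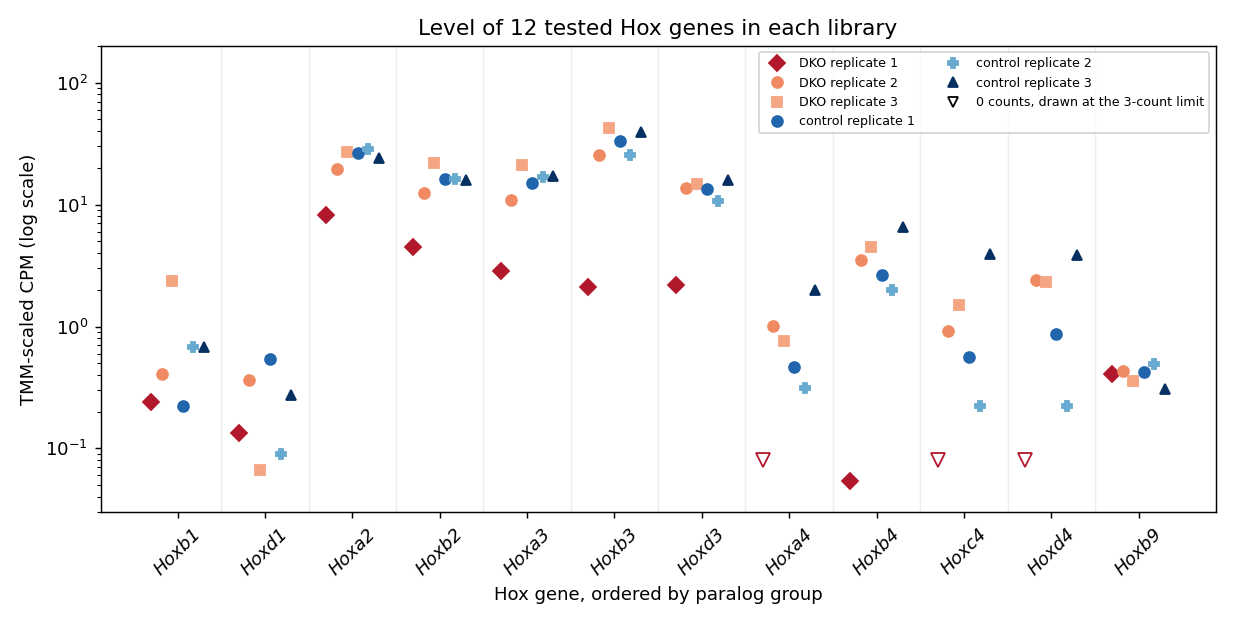
Level of 12 tested Hox genes (TMM-scaled CPM, log axis) in each of the 6 libraries, with genes ordered by paralog group and a count of 0 drawn as an open triangle at the 3-count limit. DKO replicate 1 sits below the other 5 libraries for every gene of paralog groups 2, 3 and 4, and level with them for Hoxb9.

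Genes of paralog group 2 were present in every library and lowest in DKO replicate 1. For Hoxa2, the DKO libraries (replicates 1, 2 and 3 in turn) stood at 8.16, 19.7 and 26.95 CPM and the control libraries at 26.4, 28.7 and 23.9 CPM. For Hoxb2, the DKO libraries stood at 4.53, 12.4 and 21.99 CPM and the control libraries at 16.3, 16.1 and 16.03 CPM. For both genes the 3 control libraries were close together and DKO replicate 3 lay within or above their range. DKO replicate 2 lay below that range, and DKO replicate 1 lay far below it. DKO replicates 2 and 3, pooled, held 2.86 times the Hoxa2 of DKO replicate 1 (95% exact counting interval 2.54 to 3.24) and 3.81 times its Hoxb2 (3.25 to 4.49).

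Genes of paralog group 3 fell further short in DKO replicate 1. The Hoxb3 level was 2.10, 25.3 and 42.1 CPM in the DKO libraries and 33.3, 25.5 and 39.3 CPM in the control libraries. Hoxa3 measured 2.86, 10.8 and 21.3 CPM in DKO against 15.1, 16.8 and 17.1 CPM. Hoxd3, which acts with Hoxa3 in the neck vertebrae, measured 2.21, 13.8 and 14.8 CPM in DKO against 13.5, 10.8 and 15.8 CPM. For Hoxb3 and Hoxd3, DKO replicates 2 and 3 lay among or close to the control libraries. For Hoxa3, DKO replicate 2 lay below all control libraries and DKO replicate 3 above them. The pooled DKO replicates 2 and 3 exceeded DKO replicate 1 by 16.1 times for Hoxb3 (interval 12.8 to 20.4), 5.64 times for Hoxa3 (4.62 to 6.93) and 6.46 times for Hoxd3 (5.17 to 8.18).

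Genes of paralog group 4, which mark crest behind the third arch, were at or near 0 in DKO replicate 1. Hoxb4 had 2 counts in DKO replicate 1, against 155 and 202 in the other DKO libraries and 118, 44 and 191 in control replicates 1 to 3. Hoxd4 had 0 counts there, against 105 and 103 in DKO and 39, 5 and 112 in controls. Hoxc4 had 0 counts against 40 and 67 in DKO and 25, 5 and 114 in controls, and Hoxa4 had 0 against 44 and 34 in DKO and 21, 7 and 58 in controls. For all 4 genes, control replicate 2, the library with the fewest total counts, came next lowest, and control replicate 3 was highest in CPM. Relative to DKO replicates 2 and 3 pooled, DKO replicate 1 was at least 29.1-fold lower for Hoxd4, at least 14.95-fold lower for Hoxc4 and at least 10.9-fold lower for Hoxa4, taking 3 counts as the limit of a 0 in that library. The lower ends of the 95% exact counting intervals were smaller, at 23.4 for Hoxd4, 11.95 for Hoxc4 and 8.66 for Hoxa4. For Hoxb4 the ratio was 74.8 with a 95% exact counting interval of 20.6 to 620.3. Such intervals and limits cover counting error only, and 1 library has no replicate, so the difference between DKO replicate 1 and the others was not tested.

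From paralog groups 1 and 2 to groups 4 and 5, the shortfall of DKO replicate 1 grew larger. Over paralog groups 1 and 2 the summed level was 13.4 CPM in DKO replicate 1 against 33.6 and 52.4 CPM in the other DKO libraries and 41.7 to 46.03 CPM in controls. Over paralog group 3 it was 7.17 CPM against 49.9 and 78.2 CPM in DKO and 53.1 to 72.3 CPM in controls. Over paralog groups 4 and 5 it was 0.0539 CPM, from 2 counts, against 8.31 and 9.30 CPM in DKO and 2.87 to 19.1 CPM in controls. As a share of the mean of DKO replicates 2 and 3, these 3 levels are 31.2%, 11.2% and 0.612%. Groups 6 to 13, with 17 counts in DKO replicate 1, did not continue this order and stood at 70.9%. All 4 clusters took part, with 11.4 CPM for Hoxa in DKO replicate 1 against 32.3 to 50.02 CPM in the other 5 libraries, 7.33 against 42.3 to 71.5 CPM for Hoxb, 0 counts against 0.269 to 4.48 CPM for Hoxc and 2.40 against 11.1 to 20.03 CPM for Hoxd. In such bulk libraries, fewer cells of a kind and less RNA per cell cannot be told apart.

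**Figure D2:**
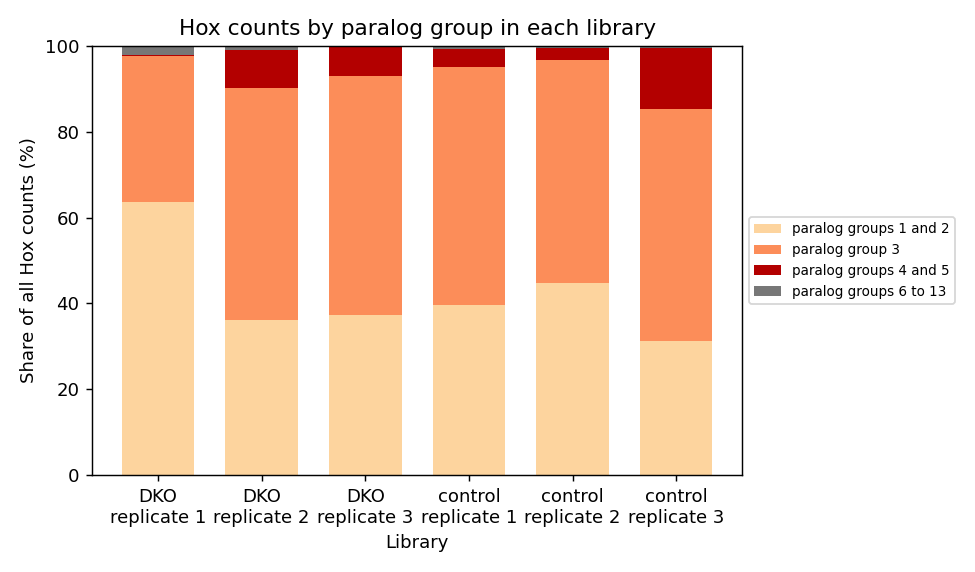
Share of all Hox counts (%) that fell to paralog groups 1 and 2, 3, 4 and 5, and 6 to 13 in each library, as stacked bars from 0. Paralog groups 1 and 2 took 63.6% in DKO replicate 1 and 31.2% to 44.9% in the other 5 libraries, and groups 4 and 5 were widest in control replicate 3 at 14.3%.

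The make-up of the Hox counts differed between DKO replicate 1 and the other libraries as well. Paralog groups 1 and 2 held 63.6% of the 783 Hox counts of DKO replicate 1 (Wilson 95% interval 60.2% to 66.9%), and 31.2% to 44.9% in the other 5 libraries. Paralog group 3 held 34.0% (30.7% to 37.4%) in that library and 51.8% to 55.7% in the others. Groups 4 and 5 held 0.255% (0.0701% to 0.926%) in DKO replicate 1, 8.98% and 6.63% in DKO replicates 2 and 3, and 4.25%, 2.80% and 14.3% in control replicates 1 to 3. The ratio of Hoxb3 to Hoxb2, neighbours in the Hoxb cluster, was 0.464 in DKO replicate 1 and 1.58 to 2.45 in the other 5 libraries.

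Control libraries also differed from one another in the posterior groups. Their levels over paralog groups 1 and 2 were 44.2, 46.03 and 41.7 CPM in replicates 1 to 3, while those over groups 4 and 5 were 4.74, 2.87 and 19.1 CPM. Control replicate 3 carried most of the transcripts of paralog group 5 as well. Hoxb5, a gene of vagal crest, had 43 counts there, 11 and 5 in DKO replicates 2 and 3, and 0 in the other 3 libraries. Hoxa5 had 24 counts there against 0 to 3 in the other libraries, and Hoxc5 had 16 against 0 to 8.

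Hox genes of the trunk were almost silent. Of the 24 genes of paralog groups 6 to 13, only Hoxb9 passed the filter, and together they had 13 to 36 counts per library. Hoxb9, known for its part in the patterning of the ribs, had 15, 19 and 16 counts in the DKO libraries and 19, 11 and 9 in the control libraries, or 0.308 to 0.494 CPM over all 6 libraries. Its level in DKO replicate 1 was 102% of that in the other DKO libraries, so it did not share the low level of groups 2 to 4 there. Hoxd8 had 14 counts in DKO replicate 2, 8 in control replicate 1 and 0 or 1 in the rest. The other untested genes of these groups had at most 3 counts in any library. Those with 0 counts in all 6 libraries were Hoxa6, Hoxc6, Hoxb7, Hoxc8, Hoxa9, Hoxc9, Hoxc10, Hoxd10, Hoxa11, Hoxc11, Hoxd11, Hoxd12 and Hoxb13.

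Hoxb1, which marks a single segment of the hindbrain and its crest, followed another pattern. It had 105 counts in DKO replicate 3 and 9 to 20 in each of the other libraries, which is 2.35 CPM against 0.224 to 0.684 CPM. Its neighbours Hoxb2 and Hoxb3 were also highest of all libraries in DKO replicate 3. Hoxd1 ranged from 0.0671 CPM in DKO replicate 3 to 0.537 CPM in control replicate 1.

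In the comparison of DKO with control, 0 of the 13 tested Hox genes were called by edgeR's quasi-likelihood test, with adjusted p-values of 0.4996 to 0.986 over all 14555 genes. Of all tested genes, 3.01% were called, 2.19% higher and 0.818% lower. None of the 13 had an unadjusted p under 0.05 (0 with DESeq2 and 0 with limma-voom as well). In 0 of the 13 did the DKO libraries separate from the control libraries, which 27.2% of all tested genes did. The log2 fold change was negative for 12 genes and positive for Hoxb1, with a median of -0.45 against -0.01 over all tested genes; with library-size scaling the signs of Hoxd4 and Hoxb9, at -0.06 and -0.03, were among those that turned positive. Hoxa2 had a log2 fold change of -0.52 (SE 0.40, adjusted p = 0.4996) and Hoxb3 of -0.50 (SE 0.95, adjusted p = 0.817). A p above the threshold does not show that the groups were alike, and the standard errors reached 1.36 for Hoxd4.

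Of the 12 negative fold changes, 6 turned positive without DKO replicate 1 and 6 stayed negative. Without it, 14 Hox genes passed the filter, 7 had negative and 7 positive log2 fold changes, the median was 0.01, and 0 were called, against 0.888% of all tested genes in that fit (0.746% higher and 0.142% lower). The standard errors were smaller with 2 DKO libraries than with 3 for every gene of groups 2, 3 and 4. Hoxa2 then stood at -0.17 (SE 0.16, edgeR adjusted p = 0.685), Hoxb2 at 0.09 (SE 0.23), Hoxa3 at -0.03 (SE 0.27), Hoxb3 at 0.04 (SE 0.26) and Hoxd3 at 0.09 (SE 0.18). The summed Hox level was 84.6 ± 59.99 CPM in the 3 DKO and 116 ± 15.99 CPM in the 3 control libraries (SD, n = 3 each), a log2 ratio of -0.45, and 0.01 without DKO replicate 1. Over groups 4 and 5 the log2 ratio of the group means was -0.60 with all 6 libraries, -0.01 without DKO replicate 1 and 0.63 without control replicate 3.

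**Figure D3:**
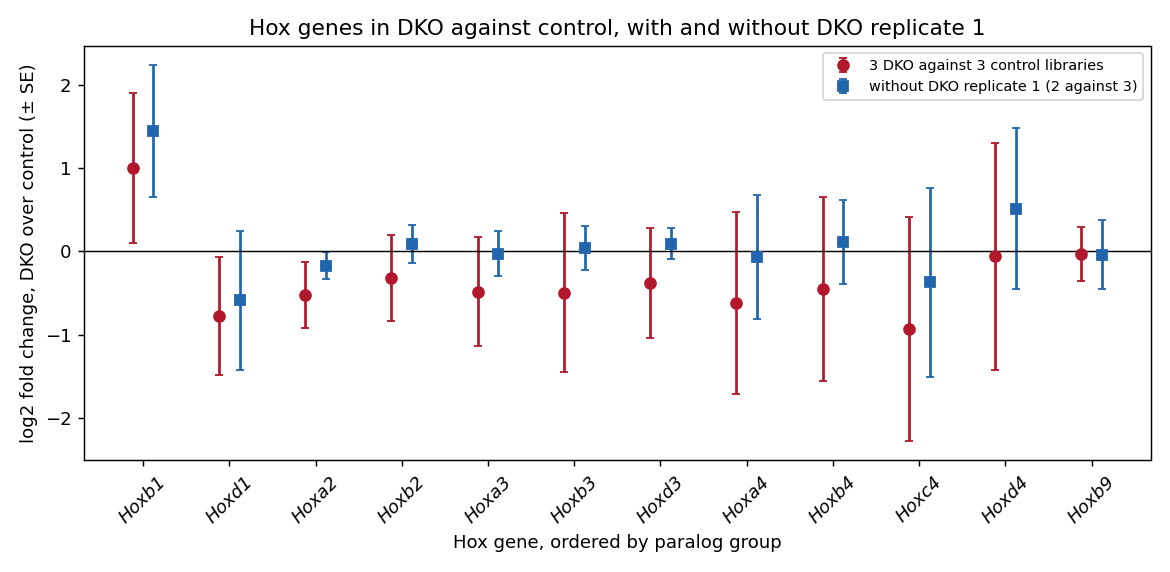
Log2 fold change of DKO over control with its standard error for 12 tested Hox genes, from all 6 libraries (circles) and without DKO replicate 1 (squares). The 5 genes of groups 2 and 3 lie between -0.52 and -0.31 with all libraries and between -0.17 and 0.09 without DKO replicate 1.

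Across the whole table, DKO replicate 1 was not low in general. It was the lowest of the 6 libraries for 10 of the 13 tested Hox genes and for 11.3% of all tested genes, and the highest for 0 Hox genes and 13.97% of all tested genes. On a scale of log2(CPM + 0.1), 11 of the 13 Hox genes lay more than 2-fold below the mean of the other DKO libraries, as did 0.921% of all tested genes. The median shift was -2.37 over the Hox genes and 0.01 over all tested genes. This library was singled out after its values were seen, so these are descriptions.

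Genes of Hox-free head crest were at their highest in the same library, by a small margin. Of the 10 listed, 8 were highest of all 6 libraries in DKO replicate 1, under each of the 3 scalings tried. They summed to 1180 CPM there, 1099 and 889 CPM in DKO replicates 2 and 3, and 1046, 1104 and 924 CPM in control replicates 1 to 3. Alx4 and Alx1, homeobox genes of the frontonasal and upper jaw crest, measured 359 and 162 CPM in DKO replicate 1 against 257 to 349 and 120.3 to 155 CPM elsewhere. None of the 10 was called between groups (edgeR, median log2 fold change 0.05, and -0.06 without DKO replicate 1). Among all tested genes, 3.01% were called.

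Hox cofactors were abundant in all libraries. These TALE homeodomain proteins (Pbx, Meis and Pknox) bind DNA together with Hox proteins, and the first arch expresses them too. Of 9 tested members, 0 rose and 0 fell, against 3.01% called among all tested genes. The median log2 fold change was -0.09. Without DKO replicate 1 the median was -0.12, again with 0 called, against 0.888% of all tested genes in that fit. Their summed level was 1196 to 1275 CPM in DKO and 1379 to 1420 CPM in control libraries. The groups did not overlap with scaling by TMM, RLE or library size. With library size the gap was narrow, at 1217 to 1317 against 1328 to 1401 CPM. Of single tested genes, 27.2% did not overlap between groups. Pbx2 measured 268 ± 9.79 CPM in DKO and 285 ± 24.4 CPM in controls (SD, n = 3 each), and its fold change was -0.09 on the log2 scale with an SE of 0.08. Of the 9 cofactors, 2 were lowest in DKO replicate 1 and 0 highest there. Meis1 stood at 81.3 CPM in that library against 121 to 151 CPM in the other 5 libraries. Meis2 stood at 189 CPM against 230 to 285 CPM. Both were named after their values were seen.

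None of the tested regulators of Hox genes was called. Of all tested genes 3.01% were, so 0 calls in so short a list say little. The list held hindbrain factors that switch Hox genes on, Polycomb and trithorax genes that hold them off or on, and the makers, breakers and receptors of retinoic acid. Of 22 tested members, 0 rose and 0 fell (median log2 fold change -0.13, with or without DKO replicate 1). All 25 listed summed to 2369 to 2463 CPM in DKO and 2574 to 2845 CPM in control libraries, which did not overlap. Of single tested genes, 27.2% did not overlap either. With library-size scaling the regulator sums did overlap (2410 to 2545 against 2479 to 2754 CPM). The most abundant were the H3K27 demethylase gene Kdm6b (log2 fold change -0.13, SE 0.08) and Psip1 (-0.24, SE 0.08), whose product tethers the MLL complex to chromatin. The 6 genes reported downstream of Hoxa2 also had 0 called members, with a median of -0.14 with or without DKO replicate 1. Six2, which Hoxa2 represses in the second arch, measured 223, 211 and 140.5 CPM in DKO and 208, 234 and 187 CPM in controls, and Zfp703 had a log2 fold change of -0.07.

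**Figure D4:**
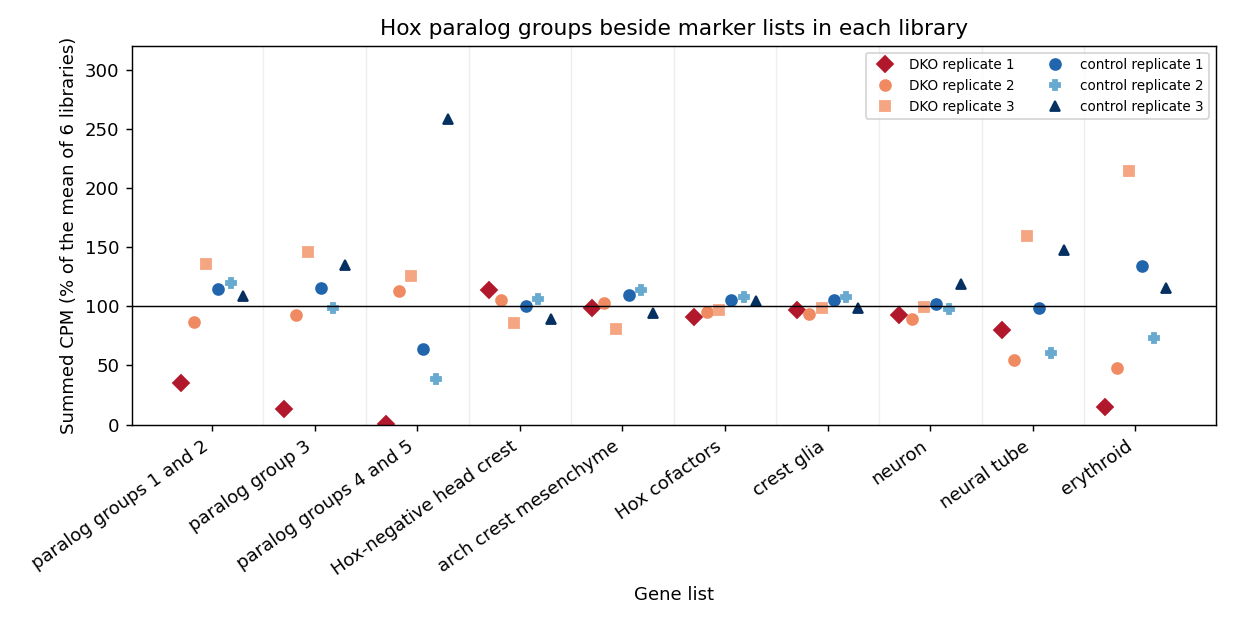
Summed CPM of 3 groups of Hox genes and 7 marker lists in each library, as a percentage of the mean over the 6 libraries (line at 100). DKO replicate 1 is lowest for the 3 Hox groups, erythroid genes and, narrowly, Hox cofactors, highest for Hox-free head crest genes and in mid-range for neural tube genes.

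Markers of other cells that express Hox genes moved differently from the Hox genes. The 12 neural tube genes summed to 173, 117.5 and 345 CPM in the DKO libraries and 214, 131 and 319 CPM in the control libraries, so DKO replicate 1 lay within their range. Sox2 and Lhx1 measured 43.8 and 27.997 CPM in DKO replicate 1, and 34.2 to 87.8 and 13.4 to 42.5 CPM in the others. DKO replicate 3 and control replicate 3 were highest for this list and for the sum of paralog group 3. The neuron list ran from 1045 to 1167 CPM in DKO and from 1145 to 1394 CPM in controls. Of its 10 members, 0 were called higher and 1 lower, against 2.19% and 0.818% of all tested genes. That member was the sensory neuron gene Pou4f1 at -0.45 on the log2 scale (SE 0.09), with an adjusted p of 0.0306 by edgeR and, without DKO replicate 1, a value of -0.47 with an adjusted p of 0.124. The 7 genes of vagal, autonomic and enteric crest had 0 called, with Gata2 at 65.4 to 94.1 CPM and Gfra1 at 41.1 to 69.3 CPM. Wnt1, a gene of the dorsal neural tube that was named after its values were seen, was lowest in DKO replicate 1 at 4.39 CPM, against 10.5 to 23.1 CPM in the other libraries. The part of these cells in the Hox levels was not tested.

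Among lists of cells outside the crest, erythroid genes were also lowest in DKO replicate 1. Their sum was 12.8, 40.02 and 181 CPM in DKO and 113, 61.8 and 97.4 CPM in control replicates 1 to 3, and 6 of 7 members, Hbb-y and Hba-a1 among them, were lowest there. Their part in the Hox result was not tested. Genes of limb bud and trunk mesoderm, where posterior Hox genes are active, summed to 67.9 to 88.7 CPM in DKO and 58.7 to 112.6 CPM in controls with 0 called. Across all tested genes, 3.01% were called. Uncx and Lmx1b, the most abundant members of the limb bud and trunk list, ran from 15.6 to 37.2 and from 11.2 to 25.1 CPM. The muscle and endothelium lists each had 1 member called higher, Myl1 (0.0676 ± 0.0223 to 0.865 ± 0.111 CPM) and Tie1 (0.965 ± 0.146 to 8.05 ± 0.889 CPM; SD, n = 3 each), and both calls held without DKO replicate 1. The glia, mesenchyme, immune and epithelium lists had 0 called, with the glial gene Fabp7 at 71.9 to 98.6 CPM, the macrophage gene Cd68 at 5.40 to 9.71 CPM and the pouch gene Pax9 at 25.01 to 68.3 CPM.

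Genes that flank the Hox clusters were not called between groups, which was also so for the Hox genes. The 24 nearest listed neighbours, 3 on each side of each cluster, lay 6.7 to 910 kb from their cluster, so some were distant. Of these neighbours, 22 were tested and 0 were called, against 3.01% of all tested genes. Their median log2 fold change was -0.14, and without DKO replicate 1 it was -0.16, again with 0 called (0.888% of all tested genes in that fit). Some neighbours were lowest in DKO replicate 1, among them Ttll6, described below, and Skap2 (3.48 against 4.05 to 6.55 CPM in the other libraries). Others, such as Snx11 and Atp5g1, were highest there. The most abundant neighbours were Cbx5 and Hnrnpa1, 155 and 203 kb from the Hoxc cluster. Cbx5, which encodes HP1α, a reader of H3K9 methylation, measured 607, 602 and 657 CPM in DKO and 734, 798 and 787 CPM in controls (a log2 difference of -0.31 with SE 0.08 and an edgeR adjusted p of 0.0743, against -0.30 and an adjusted p of 0.31 without DKO replicate 1). The Cbx5 groups did not overlap, which was so for 27.2% of all tested genes, and DKO replicate 1 lay among the other DKO libraries. Evx1 and Evx2, homeobox genes at the ends of the Hoxa and Hoxd clusters, and named after their values were seen, measured 7.06 and 5.04 CPM in DKO replicate 1 and 5.62 to 10.7 and 3.81 to 7.78 CPM in the other libraries.

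Counts of single Hox genes carry a limit from their overlaps. By the GENCODE M21 annotation, 4 of the 13 tested genes share exon sequence with another gene on the same strand, and 7 with a gene on the other strand. The largest same-strand overlaps were those of Hoxd3 and Hoxd4, at 62.3% and 52.3% of their exon bases, shared with each other and with Gm28230. The kit keeps the strand, but no source used here gives the strand setting of the counting, so reads of an antisense RNA, such as that over 52.9% of Hoxb3 exon bases, could be counted with the gene.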

How the data were processed

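Whole-number counts per gene symbol, not normalized, were deposited by the authors for 6 libraries. The tools named, per the submitters' processing notes, are STAR 2.7.10a, Picard and Trim Galore, and the build named is mm10. How reads were counted, on which strand and against which annotation, is not given in the sources used here. From these counts, genes were kept by filterByExpr (minimum count 10, minimum total 15), scaled by TMM and tested with edgeR 4.0.16 in R 4.3.3 (robust quasi-likelihood test, 2-sided, on group alone). Adjustment was by Benjamini-Hochberg across the 14555 tested genes, with calls at adjusted p below 0.05. The standard error is the log2 fold change divided by the root of F. Alternatives were a replicate block, RLE, library size only, other filters, DESeq2 1.42.0, limma-voom (limma 3.58.1), a 1.5-fold test and leaving out each library. Sums and shares over Hox genes have no test. Exon lengths are merged exons of protein-coding transcripts (GENCODE M21), and positions are from RefSeq on the same assembly, in which all 39 symbols matched. The members and 15 lists were chosen with earlier results of these data known. Every called Hox gene and every one with a mean of at least 10 CPM was to be given in full. From each list, up to 4 called members or the 2 most abundant were named, and a few results these rules name are not reported here.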

Additional observations from a re-analysis of the deposited data

How the results depend on the processing

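No Hox gene was called under any alternative that tested it, with a smallest adjusted p of 0.176 over all of those fits (edgeR, DESeq2 or limma-voom), and each tested Hox gene kept its sign under the block, RLE, the other filters that kept it, DESeq2, limma-voom and the 1.5-fold test. With library size only, Hoxd4 (0.0279) and Hoxb9 (0.0471) were among those that turned positive. With each library left out in turn, log2 fold changes ran from -0.59 to 1.45 for Hoxb1, -0.93 to 0.0881 for Hoxb2, -1.25 to 0.041 for Hoxb3, -0.73 to 0.0936 for Hoxd3, -1.21 to 0.56 for Hoxa4, -1.02 to 0.22 for Hoxb4, -1.71 to 0.96 for Hoxc4, -0.54 to 1.41 for Hoxd4 and -0.19 to 0.11 for Hoxb9. Hoxb1 turned negative without DKO replicate 3, and Hoxa4, Hoxb4, Hoxc4 and Hoxd4 were positive without control replicate 3. The median over tested Hox genes ran from -0.82 to 0.01. Over all genes the calls were 624 higher and 482 lower with DESeq2, 104 and 18 against a 1.5-fold change, and 110 to 597 higher and 21 to 509 lower without 1 library; the cause was not tested. The labels give both groups replicate numbers 1 to 3, but deviations of same-numbered libraries correlated at 0.05, -0.03 and 0.36, and DKO replicate 2 correlated best with control replicate 1 (0.45), so the numbers were not taken as pairs. A replicate block gave 423 higher and 196 lower genes and 0 Hox genes. Depth limits genes under about 3 counts per library, which covers most of paralog groups 6 to 13.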

Other observations

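Ttll6, a tubulin glutamylase gene that lies 28.1 kb from the Hoxb cluster, was near 0 in 3 libraries and present in the other 3, across both groups. It measured 0.0269, 0.0457 and 3.75 CPM in DKO replicates 1 to 3 and 7.13, 0.0897 and 5.88 CPM in control replicates 1 to 3, for a log2 fold change of -1.78 with an SE of 1.81, and edgeR gave it an adjusted p of 0.628. The same 3 libraries were also the lowest in summed Hox level. DKO replicates 1 and 2 stood at 21.1 and 92.6 CPM and control replicate 2 at 102.6 CPM. The other 3 stood at 111.6 to 140.3 CPM. Sums over the Hoxb cluster and over paralog group 3 ranked them alike. Sums over paralog groups 1 and 2 and over groups 4 and 5 did not. Ttll6 was named after its values were seen, and a link to Hox levels was not tested.

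Kdm6a, an X-linked H3K27 demethylase gene known to escape X inactivation, measured 143 CPM in DKO replicate 3 and 139 CPM in control replicate 2, against 77.05 to 87.2 CPM in the other 4 libraries. DKO replicate 1, the library low in Hox transcripts, stood at 83.4 CPM. This gene was also named after its values were seen.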
